A study of Homo sapiens with 20 samples.

Results

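The 10 genes described here encode enzymes that make or break down the cyclic nucleotides cAMP and cGMP. They were followed in T lymphoblasts with and without CD47, a receptor of the secreted protein thrombospondin-1 (TSP1). The genes were chosen by symbol, 10 of 60719 genes listed: the adenylyl cyclases ADCY3 and ADCY7, the soluble guanylyl cyclase subunits GUCY1A1 and GUCY1B1, and the phosphodiesterases PDE3B, PDE4A, PDE4B, PDE4D, PDE7A and PDE8A. All 10 passed the low-count filter, PDE4B only through the WT libraries. The data were 20 RNA sequencing libraries of 2 human cell lines, WT Jurkat and JinB8, a somatic mutant of Jurkat that lacks CD47 (CD47-). Each line had a single untreated library, taken at 1 h, and was otherwise sampled once per treatment after 1, 3 and 6 h on plates coated with antibodies to CD3 and CD28 (CD3+CD28), on the same antibodies with 1 μg/mL TSP1 (CD3+CD28+TSP1), and with TSP1 alone (TSP1). Both lines were kept in the same serum-free medium with insulin, transferrin and hydrocortisone. JinB8 is 1 clone, so loss of CD47 and other differences of that clone cannot be told apart, and no treatment had a second library at the same time point. The labels do not say that libraries came from separate cultures, and p-values measure the spread between these libraries only.

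Cyclic AMP is made from ATP by adenylyl cyclases, most of them switched on by G proteins at the cell membrane. Cyclic GMP is made by guanylyl cyclases, and the soluble form is a pair of an alpha and a beta subunit that binds nitric oxide. Phosphodiesterases hydrolyse both messengers, and in T cells cAMP acting through protein kinase A restrains signalling from the antigen receptor. TSP1 binding to CD47 is known to limit nitric oxide and cGMP signalling in vascular cells. Of the genes here, GUCY1A1 and GUCY1B1 act in that pathway directly, while most of the others make or hydrolyse cAMP.

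Library totals ran from 16107921 to 31737616 counts, with a median of 23802637. The T cell marker list was present in full in both lines, with 13 of 13 genes above 1 CPM (counts scaled to the library total, the unit used throughout) and a summed level of 2306 to 3266 CPM in WT and 2057 to 3180 CPM in CD47- libraries. Single genes of this list differed in both directions. TRAC had a mean of 184.2 CPM in WT and 21.8 CPM in CD47- libraries, TRBC1 892.2 and 514.0 CPM, and ZAP70 219.9 and 116.1 CPM. CD28 had 45.05 and 229.6 CPM, and CD2 43.3 and 116.9 CPM. These differences were not tested. Of the other lists, epithelial markers (0 of 2 above 1 CPM) summed to at most 0.852 CPM and myeloid markers (0 of 4) to at most 1.76 CPM in any library. The B cell list summed to 34.0 to 54.1 CPM in WT and 4.35 to 10.4 CPM in CD47- libraries, with 1 of 4 genes, CD79A, above 1 CPM. The fibroblast and endothelial list summed to 39.1 to 59.7 CPM in WT and 98.2 to 123.9 CPM in CD47- libraries, of which PECAM1 made up a mean of 46.7 and 109.8 CPM. The part of these 2 lists in the line differences was not tested. CD47 mRNA itself was lower but present in CD47- libraries, at 147 ± 12.6 CPM against 316 ± 42.1 CPM in WT (SD, n = 10 each; log2 fold change -1.10, adjusted p = 1.05e-10).

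The first question was how the enzymes differed between the lines. Of the 10 genes, 7 were lower in CD47- cells, 2 were higher and ADCY3 did not pass the test, when the 10 libraries of each line were compared with edgeR's quasi-likelihood test and an adjusted p under 0.05. The drops were largest for PDE4B, GUCY1A1 and PDE4D. Among all 16327 genes tested, 19.8% were called higher and 20.6% lower in the same comparison, so that a call as such was common. One of the 7, PDE4B, was tested only because of its WT level and had to differ, so that its call adds nothing to its counts. The median log2 fold change, PDE4B included, was -0.48 over the 10 genes and -0.01 over all genes. In bulk RNA, fewer cells expressing a gene and less RNA per cell cannot be told apart. Where the ranges of the lines are said to overlap or to be apart, this describes the values only. The share of all genes with ranges apart was not computed, and each range at a single time holds few libraries.

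**Figure D1:**
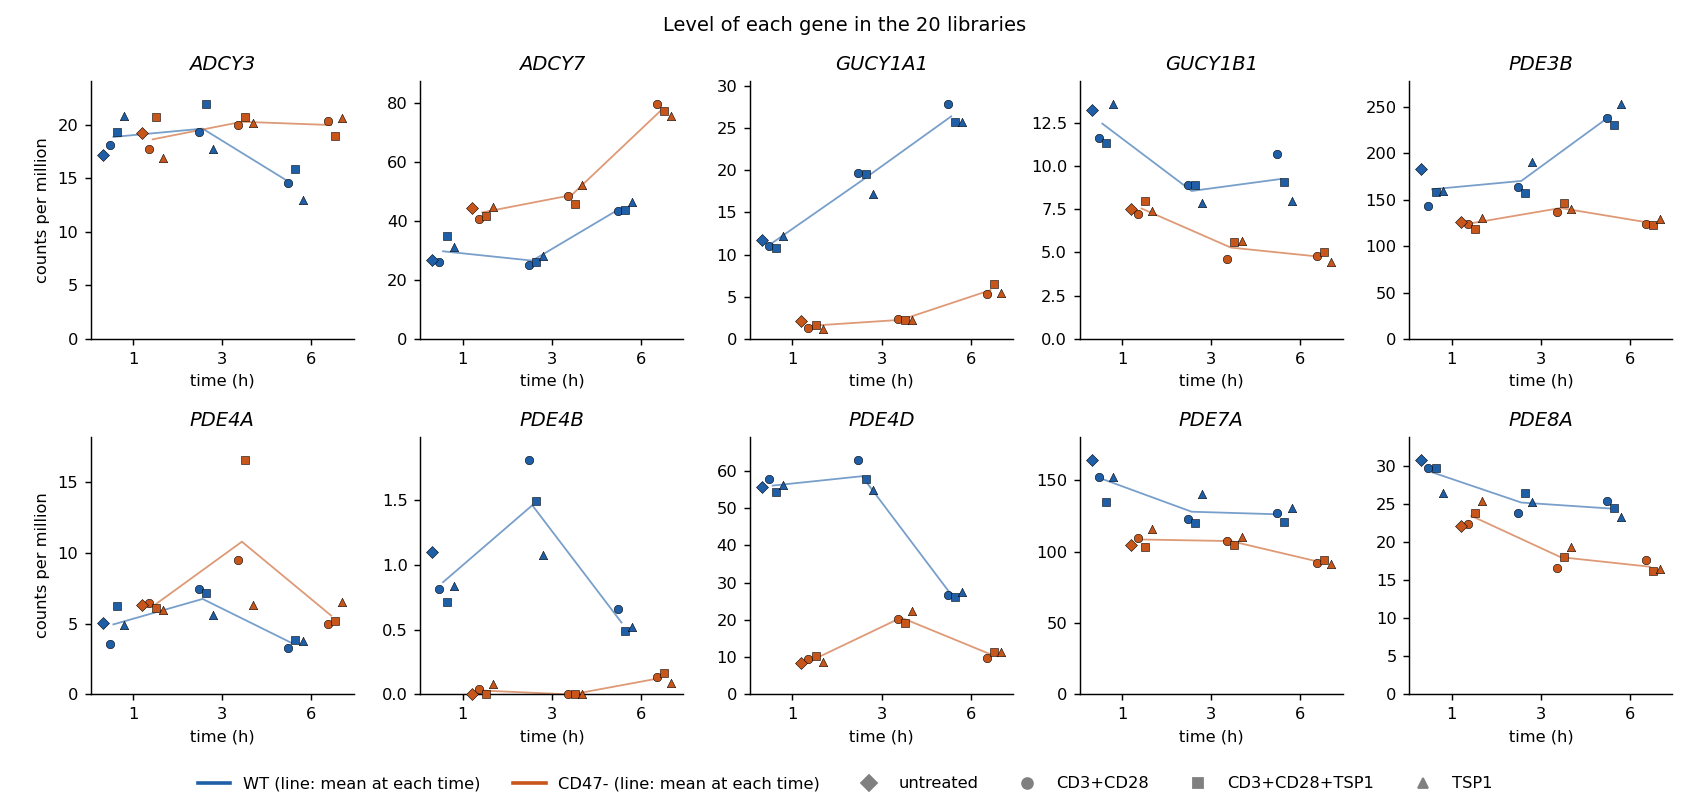
Level in CPM of the 10 genes (vertical axis, linear from 0) in each of the 20 libraries by time in h (horizontal axis), with 1 symbol per library, the symbol giving the treatment, the colour the line, and a coloured line joining the means at each time. The ranges of the lines are apart over all libraries for GUCY1A1, PDE4B, PDE4D and PDE7A, GUCY1A1 climbs in both lines, and PDE4D in CD47- cells peaks at 3 h. The share of all genes with ranges apart was not computed.

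**Figure D2:**
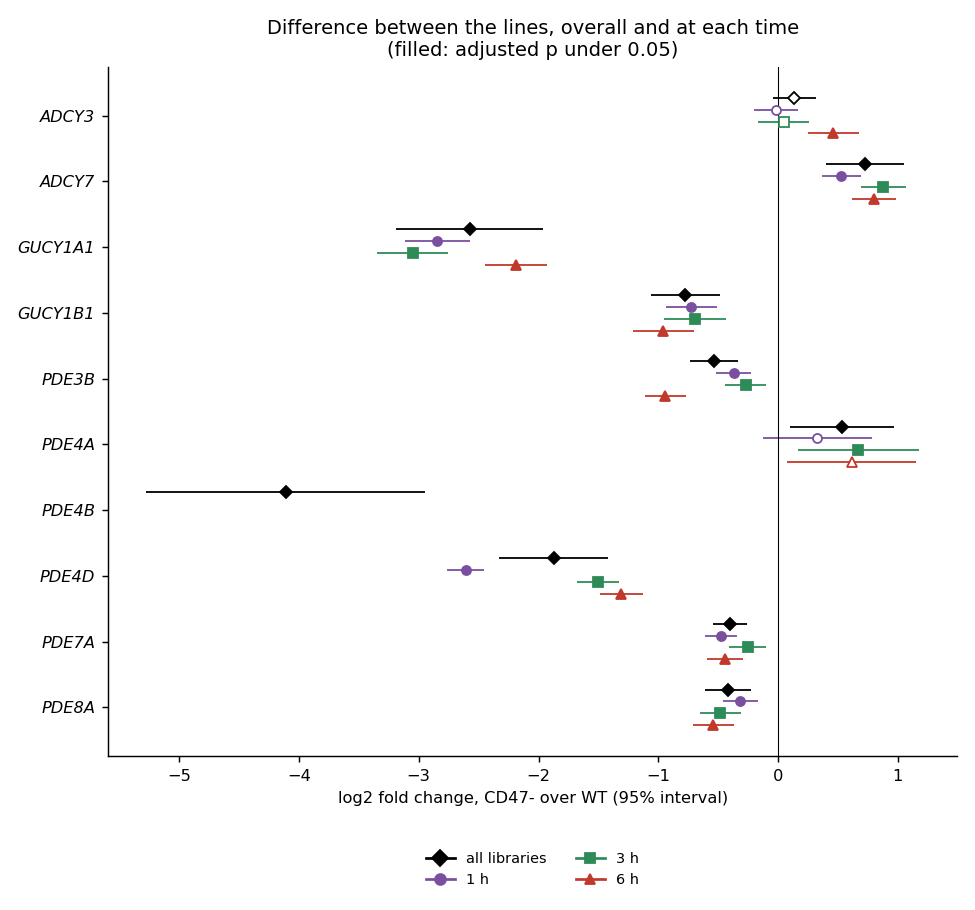
Log2 fold change of CD47- over WT (horizontal axis, with 95% intervals) for each gene over all libraries and at 1, 3 and 6 h, filled where the adjusted p was under 0.05. GUCY1A1, PDE4B and PDE4D lie furthest below 0, ADCY7 lies above 0 at each time, ADCY3 is filled at 6 h alone, and no interval is drawn for PDE4B at single times because CD47- libraries held 0 to 4 counts.

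The start-site windows of the genes that differed most are shown because GUCY1A1 and GUCY1B1 are neighbours that moved unequally and because the windows are those of isoforms described further on. They are 300 bases long, 250 before to 50 after a start site, from RefSeq on GRCh38.p14, 5′ to 3′ on the gene's strand. GUCY1A1 (ENSG00000164116.17; chromosome 4, 155666726 to 155737059) and GUCY1B1 (ENSG00000061918.14; chromosome 4, 155758992 to 155807811) both lie on the plus strand, 21.9 kb apart, and their windows are chr4:155666598-155666897 and chr4:155758771-155759070, where the leading isoform of each starts. The PDE4B window (chr1:66331858-66332157, plus strand) holds the start of PDE4B-203, the leading isoform, and the PDE4D window (chr5:59039427-59039726, minus strand) those of PDE4D-204 and PDE4D-223. PDE4A is shown at chr19:10416523-10416822 (plus strand), because that window alone of 28 searched held the full cAMP response element. Capitals mark the core of that element, TGACG, on either strand (CGTCA when read on the other strand), and TGACGTCA is 2 overlapping cores.
GUCY1A1: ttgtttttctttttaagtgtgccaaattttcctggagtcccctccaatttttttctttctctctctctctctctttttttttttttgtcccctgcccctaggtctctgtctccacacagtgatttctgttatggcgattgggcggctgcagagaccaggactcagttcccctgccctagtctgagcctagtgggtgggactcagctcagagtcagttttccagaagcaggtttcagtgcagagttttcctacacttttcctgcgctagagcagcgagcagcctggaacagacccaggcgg
GUCY1B1: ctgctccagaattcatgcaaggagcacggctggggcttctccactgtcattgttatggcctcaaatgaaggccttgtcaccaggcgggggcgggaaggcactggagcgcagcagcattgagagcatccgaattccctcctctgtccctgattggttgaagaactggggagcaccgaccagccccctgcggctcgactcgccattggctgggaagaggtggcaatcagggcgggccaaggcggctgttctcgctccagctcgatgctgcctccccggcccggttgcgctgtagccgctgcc
PDE4B: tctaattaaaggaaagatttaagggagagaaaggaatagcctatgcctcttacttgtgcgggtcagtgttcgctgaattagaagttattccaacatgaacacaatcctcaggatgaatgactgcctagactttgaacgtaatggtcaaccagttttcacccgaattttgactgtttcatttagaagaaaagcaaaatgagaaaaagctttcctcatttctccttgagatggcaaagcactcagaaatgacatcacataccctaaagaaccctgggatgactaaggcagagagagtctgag
PDE4D: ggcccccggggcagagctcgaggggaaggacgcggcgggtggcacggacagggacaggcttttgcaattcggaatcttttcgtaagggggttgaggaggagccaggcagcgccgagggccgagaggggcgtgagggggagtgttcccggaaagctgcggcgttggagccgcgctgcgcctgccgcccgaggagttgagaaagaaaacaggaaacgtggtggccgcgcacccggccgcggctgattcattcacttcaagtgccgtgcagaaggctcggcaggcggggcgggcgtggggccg
PDE4A: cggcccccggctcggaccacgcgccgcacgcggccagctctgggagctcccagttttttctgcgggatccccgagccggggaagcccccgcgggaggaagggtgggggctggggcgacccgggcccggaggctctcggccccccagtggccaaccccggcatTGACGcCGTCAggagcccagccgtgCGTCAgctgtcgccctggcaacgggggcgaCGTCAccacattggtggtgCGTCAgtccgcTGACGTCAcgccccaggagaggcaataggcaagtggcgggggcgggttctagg
No letters are capital in the first 4 windows, which hold neither motif. The PDE4A window held 7 cores, but its start site is not the one used by PDE4A-203, the most abundant PDE4A isoform here. Among 35116 such windows, 1.85% held TGACGTCA, 24.6% at least 1 core and 0.0114% 7 or more. The cut of 7 is the count of the PDE4A window itself, which was picked from 28, so that the last share does not measure how unusual it is. Of the 10 genes, 8 had windows that were searched, and 3 of their 28 windows held a core. A match describes the letters only.

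Soluble guanylyl cyclase, the nitric oxide receptor, was lower in CD47- cells in both subunits, more so in the alpha subunit gene GUCY1A1. In WT, GUCY1A1 was at 11.7 CPM untreated, 11.05 with CD3+CD28, 10.8 with CD3+CD28+TSP1 and 12.2 with TSP1 at 1 h. In CD47- cells the same libraries were at 2.09, 1.31, 1.67 and 1.22 CPM. The lines did not overlap at any time: the lowest, median and highest of 10 libraries were 10.8, 18.4 and 27.8 CPM in WT and 1.22, 2.24 and 6.51 CPM in CD47-. The log2 fold change was -2.58 (95% interval -3.19 to -1.96, adjusted p = 4.98e-07), a level 5.96-fold lower in CD47- cells. Taken by time, with standard errors, the values were -2.85 ± 0.13, -3.05 ± 0.14 and -2.19 ± 0.12 at 1, 3 and 6 h, each called.

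GUCY1B1, the beta subunit gene, was lower by less. Its lowest, median and highest levels were 7.86, 9.89 and 13.6 CPM in WT and 4.44, 5.61 and 7.995 CPM in CD47- libraries. The ranges overlapped over all libraries, but not at 1, 3 or 6 h taken singly. Its log2 fold change was -0.77 (95% interval -1.06 to -0.49, adjusted p = 9.39e-05).

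Divided by transcript length, as TPM (a length-scaled share of all transcripts), the ratio of GUCY1A1 to GUCY1B1 was 0.664 ± 0.0587 in WT and 0.219 ± 0.0502 in CD47- libraries at 1 h (SD, n = 4 each). At 6 h the ratio was 1.495 ± 0.194 in WT and 0.801 ± 0.131 in CD47- libraries (SD, n = 3 each). By this measure the alpha subunit transcript was the less abundant of the pair in every CD47- library and in WT at 1 h, and the more abundant in WT at 3 and 6 h. The order depends on annotated lengths, 9205 bases for GUCY1A1-205 and 3382 for GUCY1B1-201, the leading isoforms. In CPM the CD47- libraries at 6 h had the other order, with GUCY1A1 at 5.36, 6.51 and 5.49 and GUCY1B1 at 4.79, 5.04 and 4.44 CPM.

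PDE4 enzymes hydrolyse cAMP alone and are the targets of rolipram, and 3 of the family's genes are among the 10. PDE4D (ENSG00000113448.19; chromosome 5, 58969038 to 60522120, minus strand) was at 55.7, 57.7, 54.4 and 56.3 CPM in WT at 1 h (untreated, CD3+CD28, CD3+CD28+TSP1 and TSP1) and at 8.34, 9.50, 10.2 and 8.66 CPM in CD47- cells. At 6 h WT was at 26.6, 26.3 and 27.4 CPM and CD47- at 9.70, 11.3 and 11.4 CPM in the 3 treated libraries. No CD47- library reached the lowest WT library, and the gap narrowed with time. The log2 fold change was -1.87 over all libraries (95% interval -2.33 to -1.42, adjusted p = 4.78e-07), -2.61 ± 0.07 at 1 h, -1.504 ± 0.08 at 3 h and -1.31 ± 0.09 at 6 h.

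PDE4B (ENSG00000184588.18; chromosome 1, 65792514 to 66374579, plus strand), which is inducible in many leukocytes, was scarce in WT and nearly absent from CD47- libraries. Each WT library held 13 to 40 counts and each CD47- library 0 to 4, with 5 of 10 at 0. Summed over the lines there were 218 and 12 counts, a rate 18.7-fold higher in WT (exact 95% counting interval 10.5 to 36.7). At 3 h, with 100 counts in WT and none in CD47- libraries, WT was at least 32.5-fold higher, taking 3 counts over the group of 3 libraries as the floor. At 1 h the ratio was 29.8 (9.82 to 147.8, from 75 and 3 counts) and at 6 h it was 4.27 (2.05 to 9.96, from 43 and 9 counts). These intervals cover counting error only. The fitted log2 fold change over all libraries was -4.11 ± 0.56. Because PDE4B entered the test only through the WT libraries, where it is high, its call (adjusted p = 1.66e-07) and those at single times are no support beyond the counts themselves.

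PDE4A (ENSG00000065989.16; chromosome 19, 10416773 to 10469630, plus strand) ran the other way, but weakly. Its lowest, median and highest levels were 3.29, 4.99 and 7.46 CPM in WT and 4.96, 6.33 and 16.6 CPM in CD47- libraries, and the ranges overlapped. The highest value, CD3+CD28+TSP1 at 3 h, stood apart from the next CD47- library at 9.46 CPM. Its library also had the lowest total (16107921 counts) and the highest scaling factor (TMM, 1.2) of all libraries. Their part in this value was not tested. The log2 fold change was 0.54 (95% interval 0.10 to 0.97, adjusted p = 0.0464). Without that library it was 0.35 and the call was lost (adjusted p = 0.0933), and 8 other libraries also took the call with them when left out (adjusted p = 0.0547 to 0.0792). Taken by time it was 0.33 ± 0.22, 0.67 ± 0.24 and 0.61 ± 0.26 at 1, 3 and 6 h, of which only the value at 3 h was called (adjusted p = 0.0296). The value at 6 h was called by DESeq2 (0.64, adjusted p = 0.0337), with no filter (0.62, adjusted p = 0.00575) and with at least 1 CPM in every library (0.65, adjusted p = 0.0471). It was also called in 4 fits with a library left out (adjusted p = 0.00731 to 0.0452), at 0.63 (adjusted p = 0.00731) without the CD47- library that stood apart. With limma voom neither the overall value (0.38, adjusted p = 0.115) nor that at 3 h (0.42, adjusted p = 0.147) was called, and the overall call was also lost with no filter (adjusted p = 0.0560) and with the 6 activated (adjusted p = 0.164) or the 4 unactivated pairs alone (adjusted p = 0.164). The value at 3 h became 0.25 (adjusted p = 0.300) without the library that stood apart and 0.55 (adjusted p = 0.113) without the WT library with TSP1 at 3 h. With libraries of the same treatment and time matched as 10 pairs across the lines, the overall value was 0.50 and called (adjusted p = 0.0021). At 6 h the lines did not overlap.

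The other 3 phosphodiesterases were lower in CD47- cells by smaller amounts. PDE3B (ENSG00000152270.9; chromosome 11, 14643804 to 14872044, plus strand), which hydrolyses cAMP and is inhibited by cGMP, had 143.3, 173.2 and 252.5 CPM as its lowest, median and highest WT levels and 118.9, 127.3 and 146.4 CPM in CD47- libraries. Its log2 fold change was -0.53 (95% interval -0.73 to -0.33, adjusted p = 1.16e-04). The ranges overlapped over all libraries but at no single time. PDE7A (ENSG00000205268.11; chromosome 8, 65714334 to 65842322, minus strand), a cAMP-specific enzyme abundant in T cells, ranged from 120.3 to 164.2 CPM in WT and from 91.6 to 116.2 CPM in CD47- libraries with no overlap, a log2 fold change of -0.40 ± 0.07 (adjusted p = 6.03e-05). PDE8A (ENSG00000073417.15; chromosome 15, 84980440 to 85139145, plus strand), a high-affinity cAMP enzyme, ranged from 23.4 to 30.8 CPM in WT and from 16.2 to 25.4 CPM in CD47- libraries, a log2 fold change of -0.42 ± 0.09 (adjusted p = 8.64e-04). Its lines overlapped over all libraries and were apart at each time.

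The adenylyl cyclases were not lower. ADCY7 (ENSG00000121281.13; chromosome 16, 50246137 to 50318135, plus strand), a cyclase common in blood cells, was at 26.7, 26.0, 34.7 and 31.3 CPM in WT and 44.4, 40.7, 41.5 and 44.7 CPM in CD47- cells at 1 h. At every time the CD47- libraries were above the WT libraries. The log2 fold change was 0.73 (95% interval 0.40 to 1.05, adjusted p = 7.26e-04) over all libraries and 0.53 ± 0.08, 0.88 ± 0.09 and 0.80 ± 0.09 at 1, 3 and 6 h. ADCY3 (ENSG00000138031.14; chromosome 2, 24819169 to 24920237, minus strand), another membrane cyclase, had a log2 fold change of 0.14 (95% interval -0.04 to 0.32, adjusted p = 0.225) and overlapping ranges of 13.01 to 21.9 CPM in WT and 16.9 to 20.7 CPM in CD47- libraries. At 6 h alone the lines were apart, at 14.6, 15.9 and 13.01 CPM in WT and 20.3, 18.9 and 20.7 CPM in CD47-, a log2 fold change of 0.46 ± 0.10 (adjusted p = 8.72e-04).

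By time point, 1 of the 10 genes was higher and 7 lower at 1 h, 2 higher and 7 lower at 3 h, and 2 higher and 7 lower at 6 h. Over all genes, 24.7%, 23.5% and 22.5% were called higher and 23.7%, 22.8% and 24.1% lower at 1, 3 and 6 h. The 7 lower genes were GUCY1A1, GUCY1B1, PDE3B, PDE4B, PDE4D, PDE7A and PDE8A at each time. Leaving out the WT library with TSP1 at 3 h lost the calls of PDE3B (log2 fold change -0.18, adjusted p = 0.0788) and PDE7A (-0.18, adjusted p = 0.0600) at 3 h, and no filter lost that of PDE7A (-0.24, adjusted p = 0.0659). When only the 4 pairs of libraries without CD3+CD28 were compared, over all times, ADCY7 (0.73, adjusted p = 0.0543), GUCY1B1 (-0.74, adjusted p = 0.0799), PDE4A (0.40, adjusted p = 0.164) and PDE8A (-0.32, adjusted p = 0.224) were not called.

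Compared per length, and apart from PDE4D, whose leading isoform has no length in the annotation used, PDE7A and PDE3B had the highest levels in both lines. In WT they were at 39.2 ± 7.71 and 32.1 ± 7.52 TPM (SD, n = 10), followed by PDE8A (8.22 ± 1.38), ADCY3 (6.39 ± 1.52), ADCY7 (5.62 ± 1.495), GUCY1A1 (3.29 ± 0.969), GUCY1B1 (2.91 ± 0.633), PDE4A (1.16 ± 0.335) and PDE4B (0.317 ± 0.233). The CD47- libraries had PDE7A at 35.6 ± 8.11, PDE3B at 26.9 ± 6.21, ADCY7 at 10.6 ± 2.09, ADCY3 at 8.36 ± 1.75, PDE8A at 7.785 ± 2.035, PDE4A at 2.21 ± 1.501, GUCY1B1 at 2.03 ± 0.561, GUCY1A1 at 0.803 ± 0.319 and PDE4B at 0.0201 ± 0.0276 TPM. Taking 1 SD on each side, PDE7A and PDE3B overlapped in both lines. So did, in WT, each pair of neighbours from PDE8A through ADCY3, ADCY7 and GUCY1A1 to GUCY1B1, and in CD47- libraries ADCY7 with ADCY3, ADCY3 with PDE8A, and PDE4A with GUCY1B1. These neighbours are not ordered beyond their spread. For every gene with a TPM, the CD47- mean was higher relative to the WT mean in TPM than in CPM. Genes lower in CD47- cells thus lay relatively closer in TPM, as for PDE3B (WT and CD47- means of 187.6 and 129.7 CPM, 32.1 and 26.9 TPM). ADCY7, ADCY3 and PDE4A lay further apart, as for ADCY3 (17.8 and 19.5 CPM, 6.39 and 8.36 TPM). CPM were TMM-scaled and TPM were not, and the part of this scaling in the shift was not tested. The ranges of PDE7A, apart in CPM, overlapped at 32.1 to 53.2 TPM in WT and 24.6 to 51.5 TPM in CD47- libraries.

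The second question was how the enzymes moved over the 6 h. Changes from 1 h were estimated in each line with a separate level for each treatment. At 6 h, 3 of the 10 genes were higher and 5 lower than at 1 h in WT, against 25.7% and 24.8% of all genes, and 2 were higher and 3 lower in CD47- cells, against 26.0% and 27.0%. At 3 h it was 1 higher and 2 lower in WT (16.9% and 17.4% of all genes) and 4 higher and 2 lower in CD47- (18.0% and 20.1%). Because the only untreated libraries were taken at 1 h, time in culture and time since treatment cannot be told apart.

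**Figure D3:**
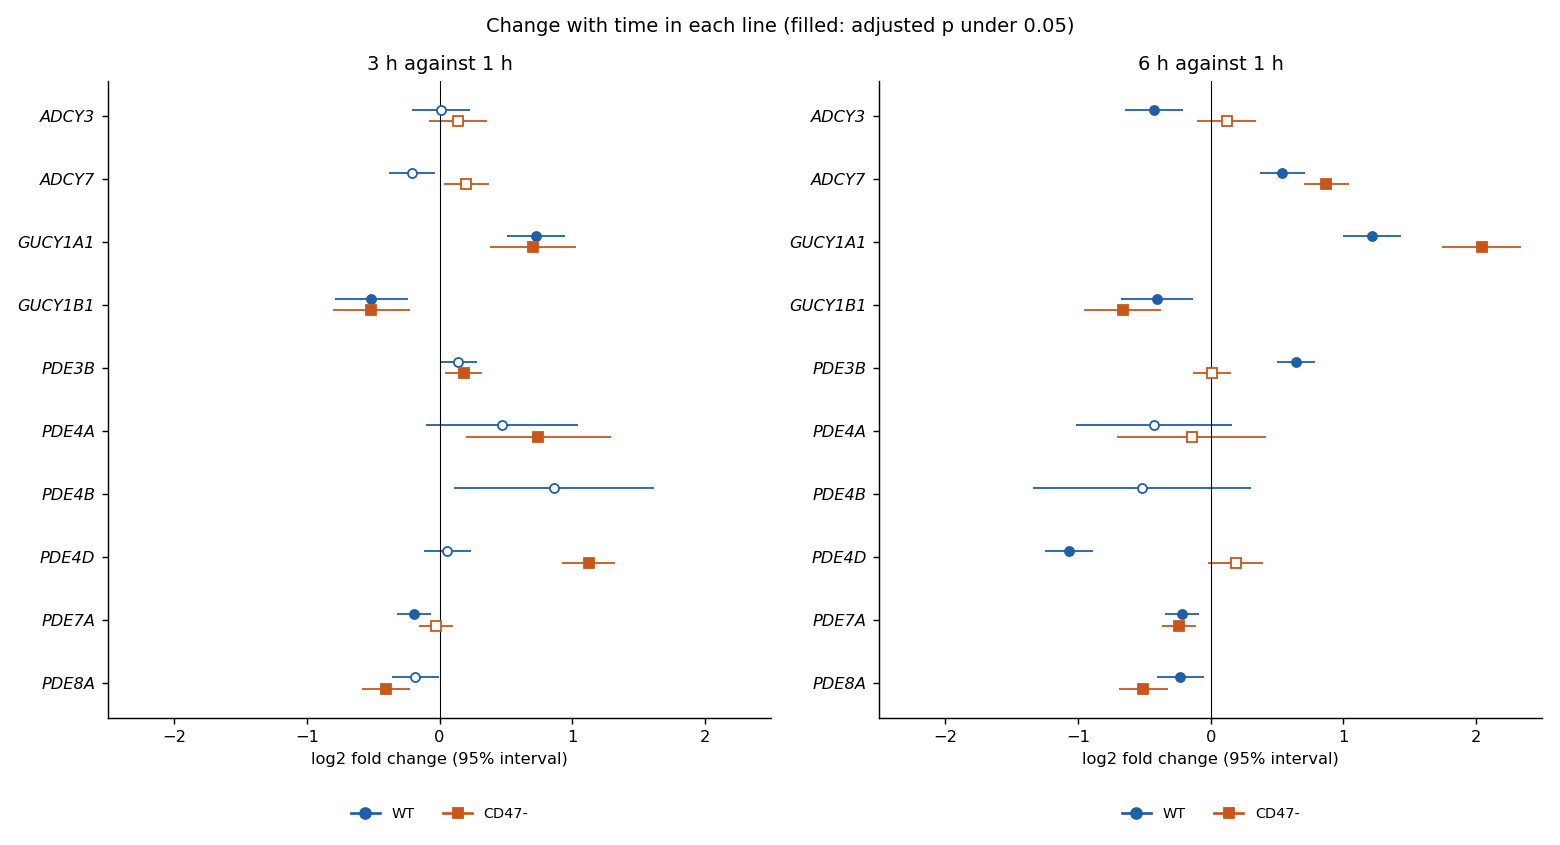
Log2 fold change of 3 h over 1 h (left) and 6 h over 1 h (right) in WT and CD47- cells (horizontal axes, with 95% intervals), filled where the adjusted p was under 0.05. GUCY1A1 lies right of 0 and GUCY1B1 left of 0 in both lines at both times, while PDE3B and PDE4D at 6 h and PDE4D at 3 h differ between the lines. PDE4B in CD47- cells is not drawn because it held 0 to 4 counts a library.

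The subunits of soluble guanylyl cyclase went in opposite directions in both lines. GUCY1A1 rose in WT from 11.4 ± 0.6135 CPM at 1 h (SD, n = 4) to 18.8 ± 1.41 at 3 h and 26.4 ± 1.22 at 6 h (n = 3 each), log2 fold changes of 0.73 ± 0.10 (adjusted p = 1.135e-04) and 1.22 ± 0.10 (adjusted p = 3.87e-07). In CD47- cells it rose from 1.57 ± 0.395 to 2.27 ± 0.0530 and 5.79 ± 0.631 CPM, log2 fold changes of 0.70 ± 0.15 (adjusted p = 0.00244, but 0.52 and 0.0925 with limma voom) and 2.04 ± 0.14 (adjusted p = 3.34e-08). The rise to 6 h was larger in CD47- cells by 0.83 on the log2 scale (95% interval 0.46 to 1.20, adjusted p = 0.00495), and the rise to 3 h differed by -0.02 (-0.42 to 0.37). GUCY1B1 fell by 0.51 ± 0.13 in WT and by 0.51 ± 0.13 in CD47- cells at 3 h (log2, adjusted p = 0.00666 and 0.00861). At 6 h it fell by 0.41 ± 0.13 and 0.66 ± 0.14 (adjusted p = 0.0153 and 8.83e-04). The WT calls for GUCY1B1 rested on few libraries: without TSP1 at 1 h they were -0.35 (adjusted p = 0.0681) at 3 h and -0.26 (adjusted p = 0.120) at 6 h, the call at 6 h was also lost without TSP1 at 6 h (-0.29, adjusted p = 0.119) or CD3+CD28+TSP1 at 6 h (-0.41, adjusted p = 0.0549), and the CD47- call at 3 h without CD3+CD28 at 3 h (-0.44, adjusted p = 0.0537).

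PDE4D had a different course in each line. WT libraries were at 62.9, 57.8 and 54.9 CPM at 3 h with CD3+CD28, CD3+CD28+TSP1 and TSP1, a log2 fold change of 0.06 (95% interval -0.12 to 0.24). They were then at 26.6, 26.3 and 27.4 CPM at 6 h, a log2 fold change of -1.07 ± 0.08 from 1 h (adjusted p = 2.62e-07). CD47- libraries rose to 20.3, 19.3 and 22.3 CPM at 3 h, a log2 fold change of 1.12 ± 0.09 (adjusted p = 2.36e-06), and were back at 9.70, 11.3 and 11.4 CPM at 6 h (0.19 ± 0.10, adjusted p = 0.116). With each of the 3 treatments CD47- cells were highest at 3 h and WT cells lowest at 6 h. From 1 to 3 h WT went up with CD3+CD28 and CD3+CD28+TSP1 and down with TSP1 (56.3 to 54.9 CPM). Each of these values is a single library. The difference between the lines in the change from 1 h was 1.06 on the log2 scale at 3 h (95% interval 0.80 to 1.33, adjusted p = 6.08e-04) and 1.25 at 6 h (0.98 to 1.53, adjusted p = 3.21e-05).

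PDE3B rose by 6 h in WT. It went from 161.2 ± 16.4 CPM at 1 h to 240.4 ± 11.1 at 6 h in WT (log2 fold change 0.64 ± 0.06, adjusted p = 2.26e-06) and from 124.6 ± 4.62 to 125.1 ± 3.58 CPM in CD47- cells (0.01 ± 0.07, adjusted p = 0.914). The 3 WT libraries at 6 h, 237.8, 230.8 and 252.5 CPM, were above the other 7 WT libraries. The difference between the lines was -0.63 (95% interval -0.83 to -0.43, adjusted p = 4.94e-04). At 3 h the change in CD47- cells was 0.18 ± 0.07 (adjusted p = 0.0407), a call that was lost in 10 of 20 fits with 1 library left out (adjusted p up to 0.170) and with no filter (adjusted p = 0.213).

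Both adenylyl cyclases differed over time too. ADCY7 rose at 6 h in each line, from 29.7 ± 4.07 to 44.4 ± 1.70 CPM in WT (log2 fold change 0.54 ± 0.08, adjusted p = 6.72e-05) and from 42.8 ± 1.99 to 77.3 ± 1.94 CPM in CD47- cells (0.87 ± 0.08, adjusted p = 6.07e-07). The difference between those rises was 0.33 (95% interval 0.09 to 0.57, adjusted p = 0.0578), short of the threshold in the main test. It was past it with DESeq2 (0.35, adjusted p = 0.0446), limma voom (0.42, adjusted p = 0.0145), upper-quartile factors and the 1 CPM filter. The line difference in the change to 3 h was 0.41 (adjusted p = 0.0582), past the threshold in the same settings (adjusted p = 0.0319 to 0.0479). With a library left out, adjusted p reached 0.192 at 6 h and 0.163 at 3 h. ADCY3 fell in WT at 6 h, from 18.9 ± 1.57 to 14.5 ± 1.45 CPM (-0.43 ± 0.10, adjusted p = 0.00330), and was at 18.6 ± 1.70 and 19.97 ± 0.915 CPM in CD47- cells (0.12 ± 0.10, adjusted p = 0.351). The difference between the lines, 0.55 (95% interval 0.23 to 0.86, adjusted p = 0.0209), was lost when any of 6 libraries was left out (TSP1 at 1 or 6 h in WT, CD3+CD28 or TSP1 at 1 or 6 h in CD47-), with log2 values of 0.46 to 0.52 and adjusted p = 0.0587 to 0.0701.

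PDE7A and PDE8A were called lower at 6 h in both lines. At 3 h PDE7A was not called in CD47- cells (log2 fold change -0.03, adjusted p = 0.715), nor PDE8A in WT (-0.18, adjusted p = 0.107). PDE7A was lower at 6 h by 0.21 ± 0.06 in WT and by 0.24 ± 0.06 in CD47- cells on the log2 scale (adjusted p = 0.00789 and 0.00358). It was also lower at 3 h in WT (-0.19 ± 0.06, adjusted p = 0.0211), where leaving out CD3+CD28 at 1 or 3 h or CD3+CD28+TSP1 at 3 h lost the call (adjusted p = 0.0623 to 0.127), and without TSP1 at 6 h of the line itself the 6 h calls were just short (adjusted p = 0.0516 in WT and 0.0507 in CD47-). In WT the PDE7A call at 3 h was also lost with limma voom (-0.12, adjusted p = 0.144) and with no filter (adjusted p = 0.1235), and that at 6 h with no filter (adjusted p = 0.0582). PDE8A fell in CD47- cells by 0.41 ± 0.08 at 3 h and by 0.51 ± 0.08 at 6 h (adjusted p = 0.00209 and 1.73e-04). In WT its log2 fold change at 6 h was -0.23 ± 0.08 (adjusted p = 0.0320), a call lost when CD3+CD28 at 1 h, TSP1 at 6 h, or CD3+CD28+TSP1 at 1 or 6 h was left out (adjusted p = 0.0621 to 0.132) or with no filter (adjusted p = 0.140). PDE4A rose at 3 h in CD47- cells (0.74 ± 0.25, adjusted p = 0.0344), but without the library that stood apart the value was 0.33 (adjusted p = 0.245), limma voom gave 0.61 (adjusted p = 0.0695), and 4 other CD47- libraries also took the call with them (adjusted p = 0.0586 to 0.1835). In WT, PDE4B had log2 fold changes of 0.86 ± 0.35 at 3 h and -0.52 ± 0.37 at 6 h, neither called (adjusted p = 0.0725 and 0.269).

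The third question was whether TSP1 or activation changed the enzymes, and whether CD47 mattered for it. None of the 10 genes was called in any of the 12 comparisons: CD3+CD28 against untreated, TSP1 against untreated, CD3+CD28+TSP1 against CD3+CD28, and CD3+CD28+TSP1 against TSP1, each in WT, in CD47- cells and as the difference between the lines. In 10 of the comparisons 0% of all genes were called by edgeR's quasi-likelihood test, in the line difference in TSP1 against untreated it was 0.00612%, and in CD3+CD28+TSP1 against TSP1 in WT it was 0.0919%. These backgrounds moved with the setting: over the 12 comparisons DESeq2 called 0 to 177 genes, limma voom 0 to 28 and the fit with no filter 84 to 790. They moved with single libraries too, and without the CD47- library with CD3+CD28+TSP1 at 3 h the line difference in TSP1 against untreated had 622 genes called, CD3+CD28 against untreated in WT 226 and TSP1 against untreated in WT 79. CD3+CD28+TSP1 against TSP1 in WT ranged from 0 genes without the WT library with CD3+CD28+TSP1 at 3 h to 42 without that with TSP1 at 6 h. DESeq2 and limma voom called 0 of the 10 genes. Among the 10 genes, the number with an unadjusted p under 0.05 was at most 1 in any of the 12 comparisons. Of all 16327 genes tested, the same cut held from 366 (CD3+CD28+TSP1 against CD3+CD28 in WT) to 2636 (CD3+CD28+TSP1 against TSP1 in CD47- cells). The small number among the 10 genes therefore sets them apart from other genes in no way.

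**Figure D4:**
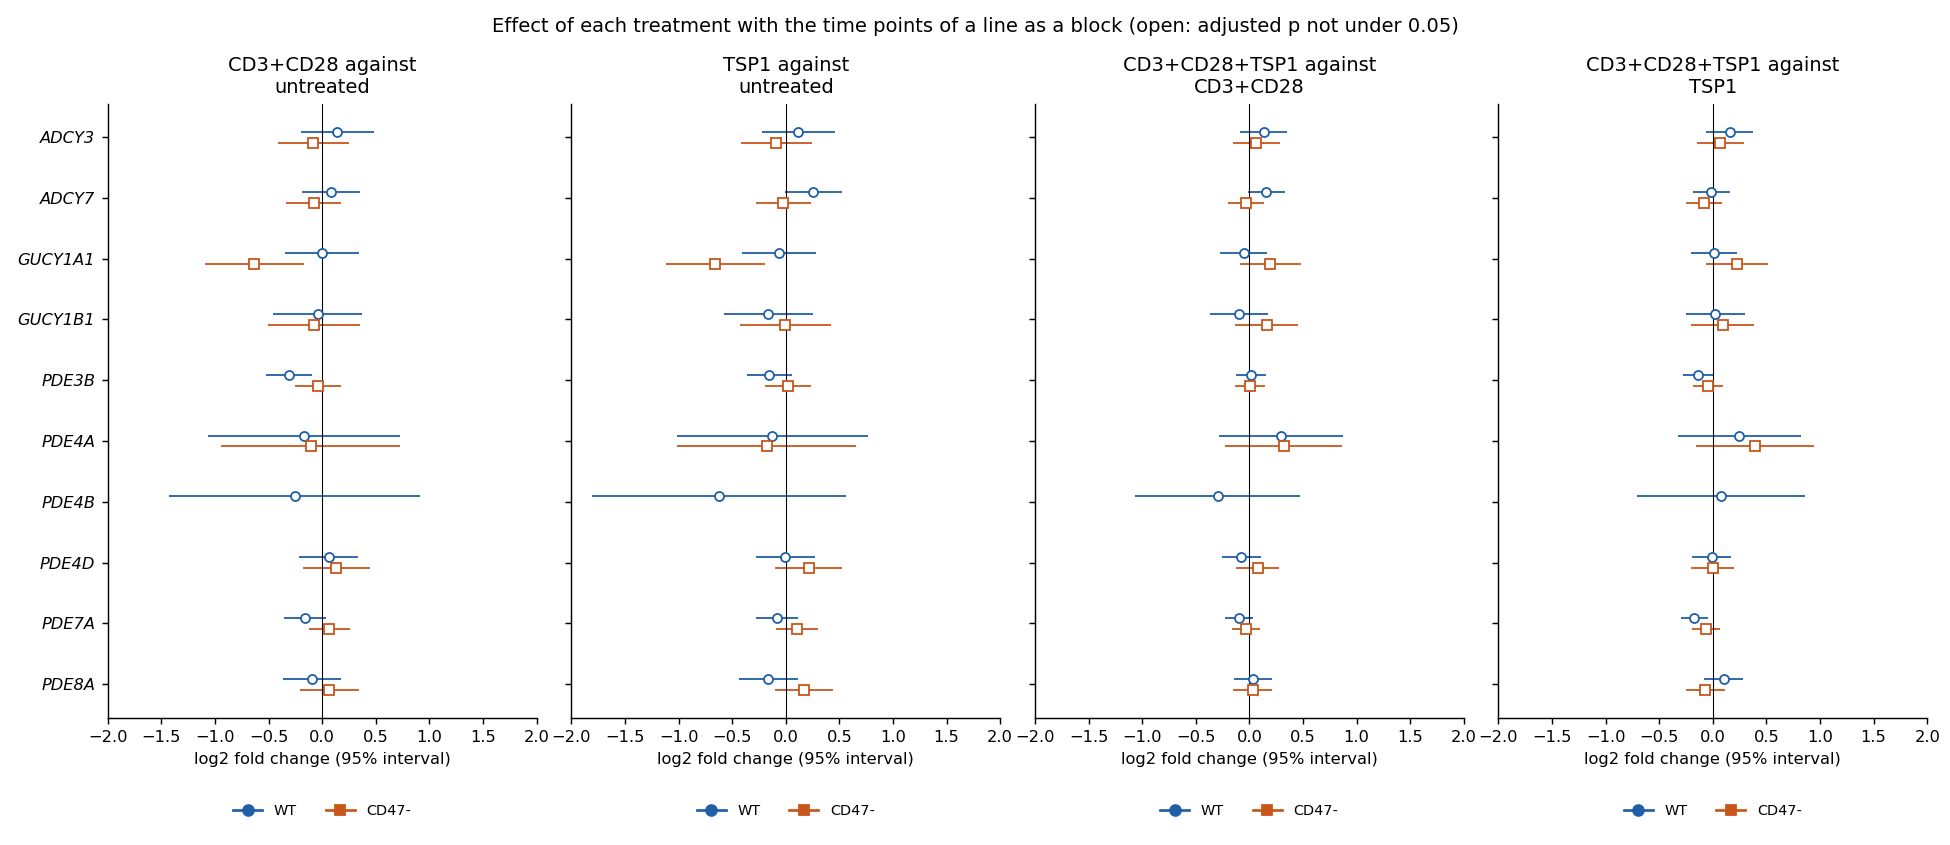
Log2 fold change of the 10 genes (horizontal axes, with 95% intervals) for 4 treatment contrasts in WT and CD47- cells, with separate time terms for each line, all symbols open because no adjusted p was under 0.05. Most intervals for CD3+CD28+TSP1 against CD3+CD28 lie within 0.5 of 0, GUCY1A1 in CD47- cells lies below 0 in both contrasts with the untreated library, and PDE4B in CD47- cells is not drawn because of its 0 to 4 counts.

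For TSP1 in activated cells, where 3 libraries met 3 in each line, the intervals give the size of effect that these data leave room for. GUCY1A1 changed by -0.05 (95% interval -0.27 to 0.16) in WT and by 0.20 (-0.08 to 0.48) in CD47- cells. PDE4D changed by -0.08 (-0.26 to 0.10) in WT and by 0.08 (-0.12 to 0.28) in CD47- cells. Apart from PDE4B, PDE4A was the least precise, at 0.29 (-0.28 to 0.87) in WT and 0.32 (-0.22 to 0.87) in CD47- cells. ADCY7 in WT had the smallest p of the 10 genes in this contrast, 0.16 (-0.01 to 0.33, adjusted p = 1 with edgeR).

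Against the untreated library, GUCY1A1 in CD47- cells had the largest fitted change of the 9 genes other than PDE4B. It was at 2.09 CPM untreated and at 1.31, 1.67 and 1.22 CPM in the treated libraries at 1 h. The log2 fold change was -0.66 for TSP1 (95% interval -1.12 to -0.20, adjusted p = 0.424) and -0.63 for CD3+CD28 (-1.09 to -0.17, adjusted p = 0.994). In WT the same contrasts were -0.06 (-0.41 to 0.28) and -0.002 (-0.35 to 0.34), and the differences between the lines were -0.60 (adjusted p = 0.338) and -0.63 (adjusted p = 0.594). Each rests on 1 untreated library, and with no time terms both CD47- values turned positive, to 0.51 and 0.52, and the differences between the lines shrank to -0.14 and -0.22. The untreated library was taken at 1 h, and GUCY1A1 rose with time in both lines. PDE3B in WT was at 183 CPM untreated and 143.3, 158.7 and 159.8 CPM treated at 1 h, a log2 fold change of -0.31 (95% interval -0.52 to -0.09, adjusted p = 0.565) for CD3+CD28. It was -0.20 (adjusted p = 0.938) with a time effect shared by the lines and -0.01 (adjusted p = 1.000) with no time terms.

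The isoform table asked which transcripts carried the differences. It listed 135 isoforms of the 10 genes, of which 34 were tested. None was called higher and 11 were called lower in CD47- cells, beside 7.51% higher and 7.55% lower of 55450 isoforms tested. Nearest to a higher call were ADCY7-202, ADCY3-212, ADCY7-215 and PDE4A-203 (adjusted p = 0.0654 to 0.158 with edgeR). Limma voom called 1 higher, ADCY7-202 (log2 fold change 3.74, adjusted p = 0.0198), which reached the filter's level in 7 WT and 10 CD47- libraries.

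Of the 11 lower isoforms 7 were the leading isoform of their gene, and the other 4 were isoforms of PDE4D and PDE7A. GUCY1A1-205, which took 74.5% of GUCY1A1 counts in WT and 60.6% in CD47-, had a log2 fold change of -2.82 (adjusted p = 3.12e-05). GUCY1B1-201 (89.2% and 93.0% of the gene) was at -0.70 (adjusted p = 0.00280), PDE3B-201 (90.6% and 90.1%) at -0.52 (adjusted p = 0.00221) and PDE8A-208 (76.8% and 69.7%) at -0.55 (adjusted p = 8.62e-04). PDE4B-203, which starts in the PDE4B window printed earlier, took 90.5% of PDE4B counts in WT and had a log2 fold change of -4.46 (adjusted p = 1.22e-05), with 7.90 counts in all CD47- libraries, and like the gene it was tested only through its WT level. In turn 3 isoforms of PDE4D were lower together: ENST00000546160.5, with 87.3% of the gene's counts in WT and 86.0% in CD47-, at -1.86 (adjusted p = 4.94e-06), PDE4D-223, annotated as a retained intron, at -1.73 (adjusted p = 0.00541), and PDE4D-204 at -2.28 (adjusted p = 0.0402), whose call was lost in 15 of 20 fits with a library left out. PDE4D-223 and PDE4D-204 reached the filter's level in 10 and 9 WT and 7 and 5 CD47- libraries. PDE7A-203, PDE7A-201 and PDE7A-202 were at -0.38, -0.36 and -0.41. PDE4A-203 was not called (0.49, adjusted p = 0.158), except with the libraries blocked by treatment and time (0.47, adjusted p = 0.0314, replicate block).

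For the cyclases the isoform picture was less settled. ADCY7-202, which shares its start with ADCY7-215, took 15.6% of ADCY7 counts in WT and 38.0% in CD47-, while ADCY7-201, whose first base lies downstream, took 44.3% and 24.0%. Neither isoform was called (log2 fold change 2.03, adjusted p = 0.0654, and -0.16, adjusted p = 0.926), and the levels varied widely, at 5.17 ± 3.96 and 20.9 ± 12.1 CPM for ADCY7-202 (SD, n = 10). The share of the leading isoform did not pass the test for any of the 9 genes examined (PDE4B had too few counts). The largest shifts were -12.65 percentage points for GUCY1A1-205 (p = 0.0425 by a permutation test on both sides, adjusted p = 0.191 for the 9 genes) and -7.78 points for PDE8A-208 (permutation p = 0.0189, adjusted p = 0.170), which without the CD47- untreated library was -9.23 points (permutation test, adjusted p = 0.0450).

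The other cyclases and phosphodiesterases, taken from lists by family, had more higher than lower calls in the main test, beside 19.8% of all genes higher and 20.6% lower. Of 14 other cyclases 6 were tested, and 4 were higher and 1 lower in CD47- cells. ADCY1, a calcium-stimulated adenylyl cyclase, was at 21.8 ± 5.69 CPM in CD47- and 1.68 ± 0.524 CPM in WT (log2 fold change 3.69 ± 0.18, adjusted p = 4.48e-13). ADCY9 was at 1.49, the membrane guanylyl cyclase GUCY2D at 1.61 and ADCY4 at 0.77 (adjusted p = 0.0476), while GUCY1A2, the other alpha subunit of soluble guanylyl cyclase, was at -1.496 (adjusted p = 2.58e-05). GUCY1A2 reached the filter's level of 0.42 CPM in 10 WT and 3 CD47- libraries and so was tested only through WT (10 of the 20 libraries had to reach it), which makes its call no support beyond the levels. NPR2, a receptor guanylyl cyclase, was at 0.07 (adjusted p = 0.796). Of 18 other phosphodiesterases 9 were tested, and 5 were higher and 1 lower. That list goes by family name, so that PDE6G and PDE6D are counted without regard to enzyme activity of their own. PDE9A, which is specific for cGMP, was at 12.1 ± 1.28 CPM in CD47- and 0.556 ± 0.195 CPM in WT (log2 fold change 4.42 ± 0.16, adjusted p = 1.18e-15). The levels of the lines did not overlap, and 8 WT and 10 CD47- libraries reached the filter's level. PDE10A was at 1.02, PDE1B at 0.77, PDE6B at 0.67 and PDE6G at 0.61, and PDE6D at -0.17 (adjusted p = 0.0315). This lower call was absent under upper-quartile factors, no filter, the activated or the unactivated pairs alone, and in 8 of 20 fits with a library left out. With at least 1 CPM required in every library, which tests fewer genes, 1 other cyclase was higher and 0 lower, and 3 other phosphodiesterases were higher and 1 lower. PDE2A, PDE5A and PDE11A were not called, with log2 fold changes of 0.14, 0.01 and 0.06 and mean levels of at most 1.49 CPM. The median log2 fold change was 1.13 for the 6 cyclases and 0.61 for the 9 phosphodiesterases, against -0.48 for the 10 genes above. These medians include GUCY1A2 and PDE4B, which were tested only through WT. PDE2A, also included, reached the filter's level in 4 WT and 6 CD47- libraries. The medians describe the lists only.

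**Figure D5:**
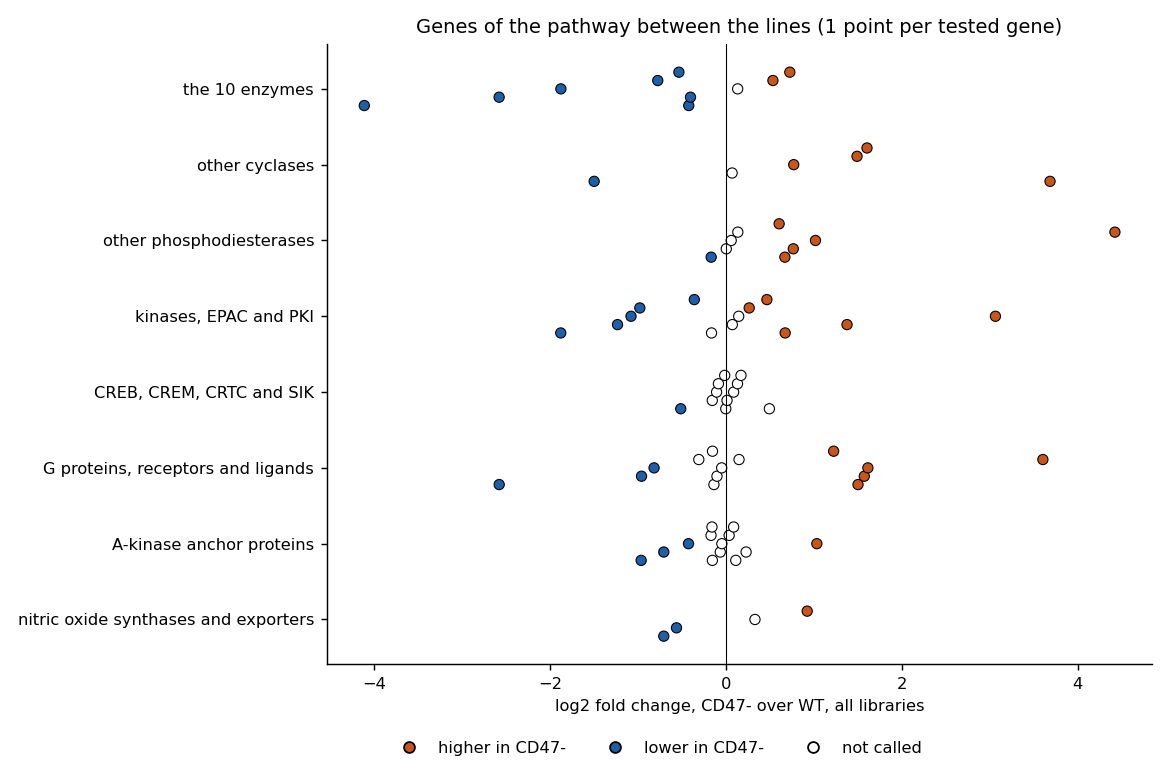
Log2 fold change of CD47- over WT (horizontal axis) for the tested genes of each list, 1 point per gene, coloured where the adjusted p was under 0.05 (orange higher, blue lower in CD47- cells, white not called). The 10 enzymes lie mostly left of 0, the other cyclases and phosphodiesterases mostly right of it, and the CREB list close to 0.

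Downstream of the cyclic nucleotides, 5 of 13 tested genes for kinases, EPAC proteins and kinase inhibitors were higher and 5 lower. PRKG2, a cGMP-dependent protein kinase, was at 27.8 ± 4.60 CPM in CD47- and 3.31 ± 0.649 CPM in WT (log2 fold change 3.07 ± 0.12). PRKACB, a catalytic subunit of protein kinase A, was at -1.08 ± 0.08, its regulatory subunit PRKAR2B at -1.23 ± 0.12 and the inhibitor PKIA at -0.98 ± 0.09. Of the 10 called, the inhibitor PKIB (higher) was tested only through the CD47- libraries. Of the 11 genes for CREB factors, their coactivators and salt-inducible kinases, all tested, 1 was called: CREM, a cAMP-induced member of the family, at -0.51 ± 0.12 (adjusted p = 0.00115). Upstream, 5 of 14 tested genes for G proteins, receptors and ligands were higher and 3 lower, with a time term 6 were higher and 5 lower, and with the replicate block of matched pairs 6 were higher and 4 lower. The background rose as well, from 6596 of all genes called to 9604 with the time term and 8957 with the block. ADORA2A, the adenosine receptor that raises cAMP in T cells, was at 5.50 ± 2.499 CPM in CD47- and 32.7 ± 4.47 CPM in WT (log2 fold change -2.58 ± 0.19), and ADCYAP1, which encodes a peptide ligand of cAMP-raising receptors, at 113.9 ± 19.4 and 9.36 ± 1.80 CPM (3.60 ± 0.12). S1PR1, a receptor coupled to inhibitory G proteins, was at 1.57 ± 0.09 and PTGER3, a prostaglandin E receptor, at 1.504 ± 0.12. Of 13 tested A-kinase anchor genes 1 was higher and 3 lower (AKAP7 at 1.04, AKAP5 at -0.96, EZR at -0.70 and AKAP17A at -0.42). Under DESeq2, limma voom or upper-quartile factors 2 were higher. The same number was higher with at least 1 CPM in every library, where 4962 of all genes were called. With the replicate block of matched pairs or the time term, against that higher background, 2 were higher and 5 lower. Of 4 tested genes in the list of nitric oxide synthases and exporters 1 was higher (NOS3 at 0.93) and 2 lower, the cyclic nucleotide exporters ABCC5 (-0.70) and ABCC4 (-0.56). The other, POPDC2, which encodes a cAMP-binding Popeye protein, was not called (0.33, adjusted p = 0.375).

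Over time the kinase list had different counts in the lines. It is described because of that contrast, which makes the contrast no test of the pathway. The other cyclases had similar counts: of 6 tested, 2 were higher and 2 lower at 6 h in WT, and 3 higher and 1 lower in CD47- cells, beside the shares of all genes given next. At 6 h, 9 of the 13 kinase, EPAC and inhibitor genes were higher than at 1 h in WT and none lower (25.7% and 24.8% of all genes), while in CD47- cells 2 were higher and 3 lower (26.0% and 27.0% of all genes), and the difference itself was called in 6 (1 higher, 5 lower, against 16.6% of all genes called at 6 h and 4.28% at 3 h). These backgrounds are 2714 and 698 genes. The first ranged from 1459 genes without the CD47- library with TSP1 at 6 h to 4273 without the CD47- library with CD3+CD28+TSP1 at 3 h, and the second from 169 without the WT library with CD3+CD28+TSP1 at 3 h to 1066 without its CD47- counterpart. PRKACB was at 0.38 in WT and -0.19 in CD47- cells on the log2 scale, a difference of -0.57 ± 0.09 (adjusted p = 0.00112). The corresponding difference was called in 4 of the 10 enzymes at 6 h (GUCY1A1, PDE4D and ADCY3 higher, PDE3B lower) and in 1 at 3 h (PDE4D). No gene of any of these lists was called in the 12 treatment comparisons.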

How the data were processed

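RNA was measured in 20 libraries, 10 of each line. Per the study's methods and the submitters' processing notes, adapters were removed with cutadapt 1.18, STAR 2.4.2a mapped the reads to hg38, and the authors deposited RSEM 1.3.3 expected counts for 60719 genes and 232184 isoforms; 2 further columns in each table belong to no sample listed here and were not used. The 10 genes and all gene lists were chosen with earlier results of these data known.

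Expected counts were rounded and tested with edgeR 4.0.16 (R 4.3.3): quasi-likelihood fit, TMM factors, a filter by line (minimum count 10, minimum total 15), Benjamini-Hochberg adjustment over all genes or isoforms tested, and a threshold of 0.05. Library totals of 16107921 to 31737616 counts set the precision. The line comparison had no covariate, the values by time point had a mean per line and time, and the time and treatment contrasts shared 1 model with a term for each line and treatment and, within each line, for 3 and 6 h. CPM were computed with TMM-scaled totals. TPM were computed from isoform counts and transcript lengths, which 99.15% of isoform counts had. Positions are from the GENCODE annotation of GRCh38. Isoform shares used libraries with at least 10 counts of the gene and 100000 permutations. Named genes were all 10 enzymes, every tested other cyclase and phosphodiesterase, up to 4 called genes of each other list with the smallest p, leading isoforms and up to 3 more per gene.

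Libraries of the 2 lines with the same treatment and time were matched: over 10 such pairs the correlation of deviations from the line means was 0.125 to 0.651, over 0.1 in each. No 2 libraries held identical values (highest correlation 0.996). Alternatives were DESeq2 1.42.0, upper-quartile factors, limma 3.58.1 (voom, quantile-normalized), no filter, at least 1 CPM in every library, the replicate block, activated or unactivated pairs only, models without or with shared time terms, and each library left out. The fitting code was tested on simulated data.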

Additional observations from a re-analysis of the deposited data

Results flagged for a closer look

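PDE4A in the CD47- library with CD3+CD28+TSP1 at 3 h was at 16.55 CPM, far from the next CD47- library at 9.46 CPM. It was the 1 outlying value among 40 groups examined, where chance gives about 1 in 20 groups. The effect of leaving this library out on each PDE4A call is given with the PDE4A values.

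The change over time differed between the lines by the interaction test of edgeR for 4 of the 10 genes. Of all genes, 16.6% were called at 6 h (2714 genes, and 1459 to 4273 with a library left out) and 4.28% at 3 h (698 genes, and 169 to 1066). For PDE4D the difference (CD47- minus WT) was 1.06 at 3 h (adjusted p = 6.08e-04) and 1.25 at 6 h (adjusted p = 3.21e-05). At 6 h it was 0.83 for GUCY1A1 (adjusted p = 0.00495), 0.55 for ADCY3 (adjusted p = 0.0209) and -0.63 for PDE3B (adjusted p = 4.94e-04), all on the log2 scale.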

How the results depend on the processing

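Over results on the 10 genes, 365 of 394 values under another setting and 1452 of 1512 with a library left out kept their direction and side of the threshold. Of the rest, 16 and 48 lost the call, 11 and 12 gained it, and 2 changed sign under another setting. The 2 were GUCY1A1 in CD47- cells against untreated with no replicate block and no time terms, 0.52 for CD3+CD28 and 0.51 for TSP1. With the replicate block of 10 matched pairs the line comparison called 8957 genes, 2 of the 10 higher and 7 lower, and 1 member isoform higher.

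In the line comparison 1 gene was higher under limma voom, no filter or the 6 activated pairs (4067 of all genes called), 0 with the 4 unactivated pairs (2706 called; fewer samples), and 1 to 2 with a library left out. At 3 h limma voom gave 1 higher (1 to 2 with a library left out). For 3 h against 1 h in WT limma voom gave 2 higher (left out, 1 to 2), and limma voom and no filter 1 lower (1 to 3). For 6 h in WT no filter gave 3 lower (2 to 5). For 3 h in CD47- cells leaving out libraries gave 2 to 5 higher and 1 to 2 lower. The line difference at 3 h had 2 genes higher under DESeq2, limma voom, upper-quartile factors or the 1 CPM filter (left out, 1 to 2), and 1060 genes in all with DESeq2 and 1397 with no filter against 698. Member isoforms higher were 1 under limma voom or the 1 CPM filter (left out, 0 to 1), lower 7 under the 1 CPM filter, and shares called 0 to 1. The cause was not tested. Depth limits PDE4B, with at most 4 counts in a CD47- library.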
